A study of Homo sapiens with 3 samples.

Results

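Angiopoietin 2 and its receptor axis were followed here through 8 genes of 23131 in the deposited table. They are the angiopoietin ligands *ANGPT1* and *ANGPT2*, their receptor *TEK* and its partner *TIE1*, the vascular endothelial growth factor ligands *VEGFB*, *VEGFC* and *PGF*, and *MCPH1*, which overlaps *ANGPT2* in the genome. Members were matched by symbol, and all 8 were found. The set was chosen on the measured difference of *ANGPT2* between the anti-*APC* and untransfected libraries, so the values of this contrast are a description and none was tested. RNA came from HCT-116, a colon carcinoma line with wild-type *APC* and a β-catenin allele whose product resists degradation. Cells were transfected 2 times with a pool of siRNA against *APC*, with a scrambled pool, or with reagent and no siRNA, and were harvested 48 hours after the second transfection. The last group is titled untransfected and described as mock, and is called mock cells in what follows, with the first value of each pair from *APC*-silenced cells. Each condition was 1 library. Values are FPKM, that is fragments scaled by transcript length and library size, for *APC*-silenced and mock cells. The study also gives a value for *ANGPT2* with scrambled siRNA. By that value, most of the rise of *ANGPT2* over untransfected cells was present with scrambled siRNA too. That library was not analysed here. From the 2 libraries used here, an effect of siRNA delivery and an effect of *APC* loss cannot be told apart in any ratio.

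Angiopoietins are secreted ligands that bind TIE2, the receptor tyrosine kinase encoded by *TEK*, which is carried mainly by endothelial cells. Angiopoietin 1 activates the receptor and holds vessels stable. Angiopoietin 2 opposes or partly mimics it depending on context, and is best known for loosening vessels so that they can sprout in the presence of VEGF. Tumor cells can secrete these ligands without carrying the receptors.

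The targeted transcript was at 37.5% of its untransfected level. *APC* had 3.43 FPKM in *APC*-silenced and 9.15 FPKM in mock cells. *AXIN2*, a feedback inhibitor of WNT signaling, had 28.7 FPKM in *APC*-silenced and 4.11 FPKM in mock cells. The files give no read counts. An estimate from the size of the lowest values, taken over genes at 0 in the other library, placed the depth near 21900000 reads for the anti-*APC* library and 25000000 for the mock library. Most markers of other cells were low. Of 15 endothelial markers, with *TEK* and *TIE1* among them, 12 had a mean of the 2 libraries under 0.1 FPKM. The whole list of markers summed to 6.20 FPKM in *APC*-silenced and 6.92 FPKM in mock cells. The other 3 had a mean of at least 0.5 FPKM. *ESAM* had 4.33 and 4.67 FPKM, *MMRN2* had 1.06 and 1.31 FPKM, and *SOX18* had 0.634 and 0.627 FPKM. *EMCN*, *SOX17* and *CD34* were listed at 0 in both libraries. Pericyte markers summed to 5.96 FPKM in *APC*-silenced and 10.4 FPKM in mock cells. Fibroblast markers summed to 3.11 and 2.86 FPKM, nearly all of it *COL1A1*. Blood cell markers summed to 5.19 and 9.13 FPKM, most of it *CD68*. Among the pericyte markers, *CSPG4* had 1.75 and 4.33 FPKM and *NOTCH3* had 1.57 and 2.89 FPKM. Any part of other cells in the *ANGPT2* values was not tested. The epithelial markers *EPCAM*, *KRT8* and *KRT18* had from 170 to 588 FPKM, whereas *VIL1*, *CDX1* and *LGALS4*, also markers of colon epithelium, were each listed at 0 in 1 library and at 0.067 FPKM or less in the other. Of the same list, *CDH1* had 12.1 and 19.0 FPKM, and *KRT20* had 0.718 and 0.475 FPKM.

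The start-site sequences of the VEGF ligand members are shown because these genes spanned the levels of the set, from the highest in the table among the members to a listed 0. RefSeq windows on GRCh38.p14 were found for 5 of the 8 members. *ANGPT2*, *ANGPT1* and *MCPH1* had no window here and were not searched, and the shares over all windows leave out the chromosome that carries them. Each line gives the 150 bases before the start site on the gene's strand, 5′ to 3′, with CpG pairs in capitals. The *VEGFB* stretch is chr11:64234434-64234583 on the plus strand, *VEGFC* is chr4:176792923-176793072 on the minus strand, and *PGF* is chr14:74955765-74955914 on the minus strand.
VEGFB: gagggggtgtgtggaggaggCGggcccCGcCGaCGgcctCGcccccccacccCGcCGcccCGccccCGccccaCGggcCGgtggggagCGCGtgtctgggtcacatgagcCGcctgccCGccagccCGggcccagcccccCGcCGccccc
VEGFC: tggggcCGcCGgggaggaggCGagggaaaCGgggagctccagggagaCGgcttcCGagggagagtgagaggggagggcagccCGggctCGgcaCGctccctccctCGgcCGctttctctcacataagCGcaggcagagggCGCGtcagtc
PGF: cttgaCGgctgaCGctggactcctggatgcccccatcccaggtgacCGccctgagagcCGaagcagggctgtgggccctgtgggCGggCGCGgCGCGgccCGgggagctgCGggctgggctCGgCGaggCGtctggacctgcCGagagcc

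All of these stretches were rich in CpG, with 18 pairs for *VEGFB*, 14 for *VEGFC* and 15 for *PGF*. Over the 250 bases before the start, the GC content was 82.8% for *VEGFB*, 74.0% for *VEGFC* and 70.8% for the first *PGF* window, against a median of 58.0% over 35116 RefSeq windows. The windows of the receptor genes differed, with 46.4% GC in both *TEK* windows and 61.6% in *TIE1*. The ligand at the highest level and the ligand listed at 0 therefore both had start regions above the median in GC. Windows of 250 bases before to 50 bases after the start were also searched on both strands for the motif letters of the transcription factors the study follows. For TCF7L2 the words were AACAAAG, the form ATCAAAG, the form TACAAAG and the form TTCAAAG. For AP-1 they were TGACTCA and the form TGAGTCA. The 2 sets share no word. Of all windows, 13.8% held a TCF7L2 word and 4.95% an AP-1 word. Among the 7 windows of the 5 members, 1 held a TCF7L2 word and 0 held an AP-1 word. The match lay in the second *TEK* window, 77 bases before its start site, at chr9:27109363-27109389 of GRCh38.p14 on the plus strand, and is printed with the matched letters in capitals.
TEK: catcctaatcTACAAAGgaaacaggaa

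*ANGPT2* had 5.55 FPKM in *APC*-silenced and 0.979 FPKM in mock cells. This was a 5.67-fold difference and a log2 ratio of 2.50. The fold is against mock cells alone, so it holds any response to siRNA of any sequence. By the value the study gives, scrambled siRNA showed most of such a rise too. The fold and the ranks below are not a measure of *APC* loss by themselves. Of 12881 genes with a mean of at least 0.5 FPKM and a value above 0 in both libraries, *ANGPT2* ranked 16 by ratio, and it ranked 3 among the 1667 of these genes that had from 0.5 to 2 FPKM in untransfected cells. By level it moved from rank 12231 to rank 8864 of the 23131 genes in the table. In reads, its complete annotated transcripts of 1466 to 5416 bases place it at about 36 to 133 reads in the untransfected library and 178 to 658 reads in the anti-*APC* library. At the lower of these numbers the 95% interval of the fold, exact (Clopper-Pearson) and for counting error only, ran from 3.95 to 8.36. There was no replicate to give the spread between cultures. Adding 1 FPKM to each value gave a log2 ratio of 1.73.

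**Figure D1:**
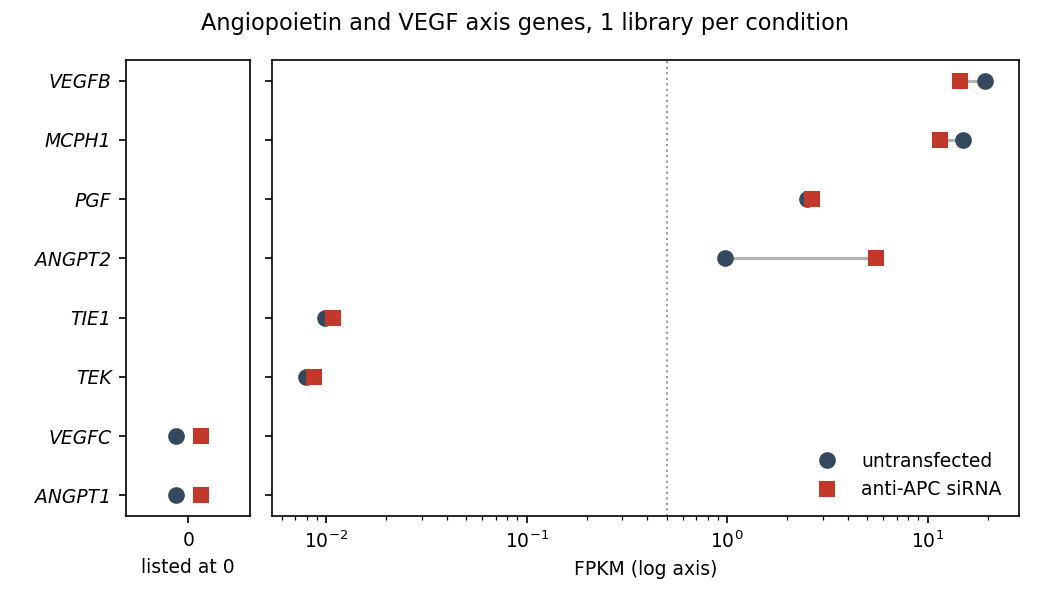
FPKM of the 8 members on a log axis, 1 point per library, with dark circles for untransfected and red squares for anti-APC siRNA; members listed at 0 stand in the panel on the left, and the dotted line is the minimum mean of 0.5 FPKM. ANGPT2 shows the widest gap, from 0.979 to 5.55 FPKM, while TEK and TIE1 lie near 0.01 FPKM in both libraries.

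*ANGPT2* lies on chromosome 8 of GRCh37, from 6357153 to 6420930 on the minus strand. *MCPH1* runs from 6264113 to 6506029 on the plus strand and spans it whole. Cuffdiff placed both at 1 locus. *MCPH1* encodes microcephalin, a regulator of chromosome condensation and of the DNA damage response. It had 11.6 FPKM in *APC*-silenced and 15.0 FPKM in mock cells, or 77.4% of the mock level (log2 ratio -0.37). The counting interval of this fold was 0.688 to 0.869. The gap in *MCPH1* was 3.39 FPKM downward and that in *ANGPT2* was 4.58 FPKM upward. Summed over both genes, the log2 ratio was 0.10, and *MCPH1* made up most of that sum in both libraries.

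The exons of these genes hardly met in the annotation. GENCODE 44 lists 6794 exonic bases for *ANGPT2* over 4 transcripts. Of these, 658 (9.69%), from 6357373 to 6358030, were also exonic in *MCPH1*. They lie in the last exon of *ANGPT2*, near its 3′ end. The longest *MCPH1* transcript, with 14 exons, shares 78 of these bases. An exon overlapping *ANGPT2* was present in 20 of the 39 *MCPH1* transcripts. The preparation and counting steps were not stated to use strand, and how reads in the shared bases and in the *MCPH1* intron around *ANGPT2* were divided was not tested. On the other side of *MCPH1*, *AGPAT5*, an acyltransferase of phospholipid synthesis, had 53.9 FPKM in *APC*-silenced and 47.0 FPKM in mock cells, a log2 ratio of 0.20. *CSMD1* and *DEFB1* were listed at 0 in both libraries, and *XKR5* had 0.008 FPKM in *APC*-silenced cells and 0 in mock cells. Among the 3 genes of this neighbourhood past the minimum, *ANGPT2* alone differed by 1.5-fold, and it was picked for its ratio. Over all 12881 genes, 2.97% were higher and 7.71% lower by this limit.

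**Figure D2:**
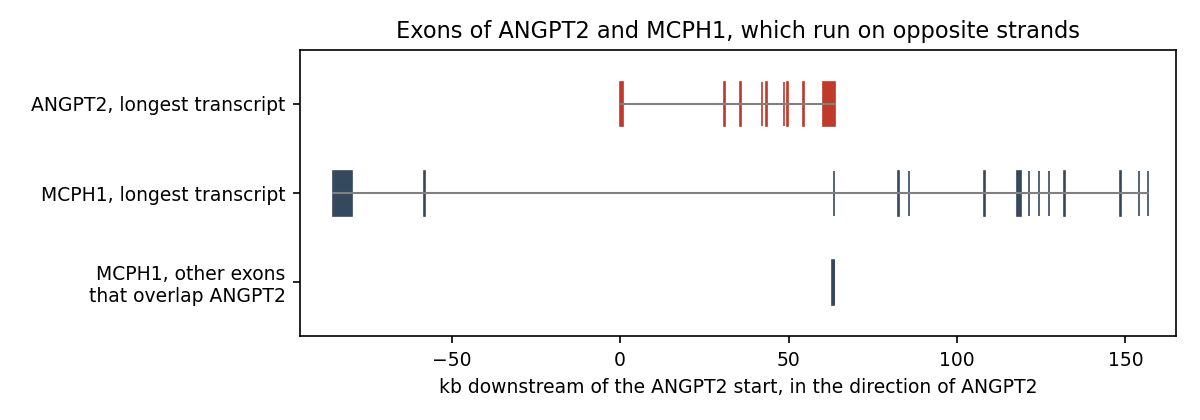
Exons of ANGPT2 (red) and MCPH1 (dark) by distance in kb from the ANGPT2 start, from GENCODE 44; thin lines are introns, and the lowest row shows exons of other MCPH1 transcripts that overlap ANGPT2. Apart from the last ANGPT2 exon, where 658 bases overlap, the ANGPT2 exons lie inside an MCPH1 intron.

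*ANGPT1*, the activating ligand of TIE2, was listed at 0 in both libraries (chromosome 8, 108261710 to 108510283). Cuffdiff marked it NOTEST, its status for too few reads. *TEK* (chromosome 9, 27109139 to 27230172) had 0.0087 FPKM in *APC*-silenced and 0.0079 FPKM in mock cells. *TIE1*, an orphan receptor that pairs with TIE2 (chromosome 1, 43766653 to 43788779), had 0.0108 and 0.0098 FPKM. Their ratios, 1.095 in both genes, were equal to that of 443 genes within 0.001, of which 354 had a mean under 0.2 FPKM. By the lengths of their longest transcripts, *TEK* and *TIE1* rested on about 1 read in each library, from 0.891 to 0.958. No difference in either receptor was detectable at this depth: the counting interval of the *TEK* fold ran from 0.014 to 86.0. The ligand *ANGPT4* sat on the same ratio, with 0.023 FPKM in *APC*-silenced and 0.021 FPKM in mock cells. *PTPRB*, the phosphatase that switches off TIE2, had 0.495 and 0.431 FPKM, and its counting interval of the fold, 0.781 to 1.69, held 1.

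*VEGFB*, a ligand of VEGF receptor 1 linked to fatty acid handling and cell survival, was the highest of the members in both libraries. It had 14.4 FPKM in *APC*-silenced and 19.2 FPKM in mock cells (chromosome 11, 64002056 to 64006736). This was 75.1% of the untransfected level, with a counting interval of the fold from 0.672 to 0.838 and a log2 ratio of -0.41. *PGF*, placental growth factor, binds the same receptor. It had 2.66 FPKM in *APC*-silenced and 2.49 FPKM in mock cells (chromosome 14, 75408537 to 75422329), and the interval of its fold was 0.671 to 1.70. *VEGFC*, the main ligand of lymphatic VEGF receptor 3, was listed at 0 in both libraries (chromosome 4, 177604689 to 177714076), although Cuffdiff gave it the status OK. Of 5218 genes listed at 0 in both libraries, 1025 carried this status, and 211 of those were alone at their locus as *VEGFC* was. Another 269 genes at 0 were marked as failed, which *VEGFC* was not. A listed 0 for *VEGFC* is not read here as silence. The order of levels in untransfected cells was *VEGFB*, *MCPH1*, *PGF*, *ANGPT2*, *TIE1* and *TEK*. With anti-*APC* siRNA *ANGPT2* stood above *PGF*, and the rest kept that order. *TIE1* and *TEK* cannot be ordered on about 1 read each.

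Of the 8 members, 4 passed the minimum mean of 0.5 FPKM, 2 were above 0 but under it, and 2 were listed at 0. *ANGPT2* was the 1 member at least 1.5-fold higher, and 0 members were at least 1.5-fold lower. Among all 12881 genes, 2.97% were at least 1.5-fold higher and 7.71% at least 1.5-fold lower. The member count is given beside these shares only, since *ANGPT2* was picked for its ratio. The closest member on the other side of the limit was *VEGFB*, at 1.33-fold lower. The median log2 ratio of all 12881 genes was -0.06.

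**Figure D3:**
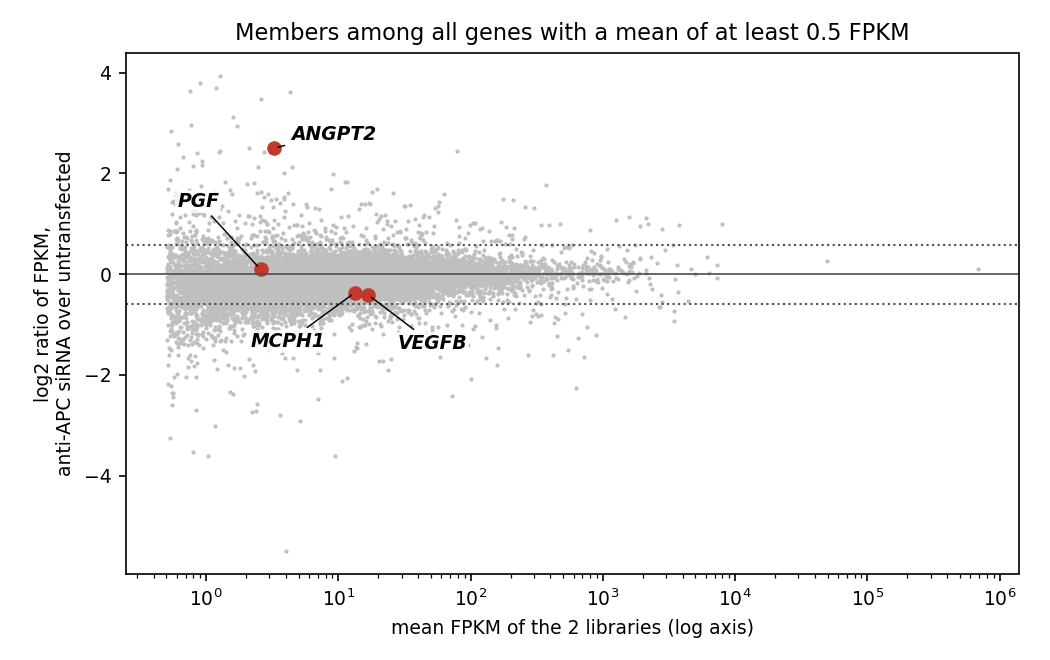
Log2 ratio of FPKM, anti-APC siRNA over untransfected, against the mean FPKM of the 2 libraries for genes with a mean of at least 0.5 FPKM (grey points), with the 4 members past that minimum in red and dotted lines at 1.5-fold; *GPRASP2*, at 1.93 FPKM in APC-silenced cells and near 0 in mock cells, is off the scale. ANGPT2 sits at 2.50, and PGF, MCPH1 and VEGFB lie between 0.09 and -0.41.

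The angiopoietin family held 1 other gene past the minimum. Of 10 angiopoietin and angiopoietin-like genes in the table, 8 had a mean under 0.1 FPKM. *ANGPTL4*, a secreted inhibitor of lipoprotein lipase, was 3.74-fold lower, with 2.06 FPKM in *APC*-silenced and 7.70 FPKM in mock cells. It was higher than *ANGPT2* in untransfected cells and lower than *ANGPT2* with anti-*APC* siRNA. The sum of the family was 7.91 FPKM in *APC*-silenced and 8.99 FPKM in mock cells.

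Among 11 TIE receptors and membrane partners, the 4 past the minimum were integrin subunits, which angiopoietin 2 can bind in cells without TIE2. *ITGB1* had 206 FPKM in *APC*-silenced and 224 FPKM in mock cells, and *ITGB5* had 37.2 and 41.6 FPKM. Their log2 ratios, with those of *ITGA5* and *ITGAV*, ran from -0.31 to -0.12, and 0 of the 4 differed by 1.5-fold. Of the 23 genes reported here from the signalling chain below TIE2, 22 passed the minimum, and their log2 ratios ran from -0.55 to 0.30. The count at least 1.5-fold higher or lower was 0 among these. Beside both counts, 2.97% of all 12881 genes were higher and 7.71% lower by this limit. The kinases *AKT1* and *AKT2* of the PI3K pathway had log2 ratios of -0.24 and -0.23. The adaptor *GRB2* had 61.8 and 84.0 FPKM, and the phosphatase *PTPN11* had 101 and 93.5 FPKM. The median log2 ratio of the 22 genes was -0.09, beside the -0.06 of all genes.

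*VEGFA*, the main angiogenic factor, had 7.91 FPKM in *APC*-silenced and 11.5 FPKM in mock cells, which was 68.6% of the untransfected level and just short of the 1.5-fold limit. *FIGF*, the other lymphatic ligand, had 0.086 FPKM in *APC*-silenced cells and was listed at 0 in mock cells. The sum of the 5 VEGF ligands was 25.1 FPKM in *APC*-silenced and 33.3 FPKM in mock cells. Of the 3 past the minimum 0 differed by 1.5-fold, beside 2.97% higher and 7.71% lower over all 12881 genes. The receptors of these ligands were nearly undetected. *KDR*, VEGF receptor 2, had 0.061 and 0.056 FPKM, and *FLT4*, VEGF receptor 3, had 0.050 and 0.047 FPKM. *FLT1*, the receptor of *VEGFB* and *PGF*, had 0.0057 FPKM in *APC*-silenced cells and was listed at 0 in mock cells. Of the coreceptors, *NRP1* and *GPC1* passed the minimum, while *NRP2* had 0.413 and 0.278 FPKM and *SDC2* had 0.012 FPKM in *APC*-silenced cells and was listed at 0 in mock cells. *NRP1* had 4.69 and 5.28 FPKM, and the proteoglycan *GPC1* had 26.3 and 35.2 FPKM. The median log2 ratio of these 2 genes was -0.29, and it was 0.11 over the receptors and coreceptors above 0 in both libraries with no minimum. Of the proteases that mature VEGFC, *FURIN* had a log2 ratio of -0.22 and *PCSK7* had 10.1 and 10.8 FPKM, while *ADAMTS3* was listed at 0 in both libraries.

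Among other angiogenic ligands, 14 of 22 passed the minimum, 1 was higher and 1 lower by 1.5-fold. The shares of all 12881 genes past this limit were 2.97% higher and 7.71% lower. *JAG1*, a Notch ligand, had 27.1 FPKM in *APC*-silenced and 8.79 FPKM in mock cells (3.09-fold). *PDGFA*, a growth factor for mesenchymal cells, had 3.13 FPKM in *APC*-silenced and 5.97 FPKM in mock cells, 52.5% of the untransfected level. The most abundant were *MDK*, with 178 and 169 FPKM, and *ADM*, with 29.1 and 25.9 FPKM. The median log2 ratio of these 14 was -0.12.

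**Figure D4:**
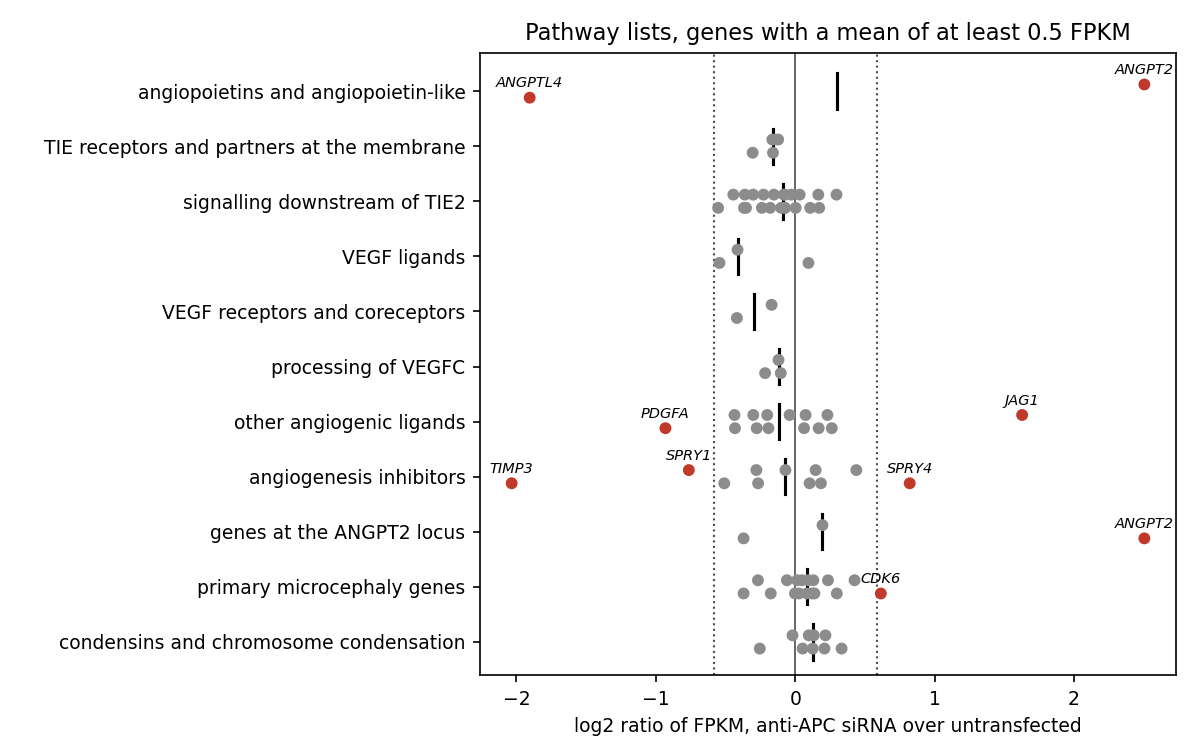
Log2 ratio of FPKM for each gene past the 0.5 FPKM minimum in 11 pathway lists; red points with names lie beyond the dotted lines at 1.5-fold, grey points within them, and the black bar is the median of the list. Most genes of the TIE2, VEGF and microcephaly lists lie within the lines, and ANGPT2 and JAG1 stand furthest to the right.

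The 5 genes nearest to *ANGPT2* in their pair of log2 FPKM values, over these 2 libraries alone, were *FGF9*, *SDCBP2*, *SPRR2D*, *C3orf57* and *SLC2A3*. The nearest, *FGF9*, encodes a fibroblast growth factor. It had 4.58 FPKM in *APC*-silenced and 0.853 FPKM in mock cells, a log2 ratio of 2.42, and lay 0.34 from *ANGPT2* on the log2 scale. *SDCBP2* had 4.00 and 0.919 FPKM, and *SLC2A3*, a glucose transporter, had 3.68 and 1.21 FPKM.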

How the data were processed

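RNA-seq of HCT-116 cells was described per the labels as 3 single-read TruSeq libraries, 1 for each of the anti-*APC*, scrambled and untransfected groups. The authors made the deposited FPKM values with Cufflinks and Cuffdiff on hg19. The aligner, annotation and versions are not given in the sources used here. The natural log ratio, test statistic, p, q and significance columns of the table hold the authors' own comparison and were not used.

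Members and gene lists were chosen with earlier results of these data known. Log2 ratios of FPKM were taken without a pseudocount, for genes with a mean of at least 0.5 FPKM and above 0 in both libraries. The list of genes below TIE2 was shortened by 1 gene, which is not reported here and enters neither its counts nor its median. Another 142 genes with such a mean were at 0 in 1 library and had no ratio. A difference of at least 1.5-fold was counted. With 1 library per condition no test was run. Named genes are the members, *APC*, *AXIN2* and list genes past 1.5-fold (at most the 5 furthest). Also named are the 2 most abundant of each pathway list, overlapping genes and the 5 nearest to *ANGPT2*. Other genes named, such as receptors at low levels, were picked with their values in view.

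Depth was read from genes of 1 GENCODE 44 transcript of at least 500 bases, alone at their locus and at 0 in the other library (91 and 100 genes). The median of the densest window of 5000000 reads, set after the values were seen, held 41 and 39 of them. Read numbers for a gene are FPKM times transcript length times depth, and intervals (95%, exact) cover counting error only. Transcript lengths come from GENCODE 44 on GRCh37, the same assembly as hg19, and may differ from those the authors used. Functions were tested on simulated data. Python 3.11.15, numpy 2.4.6, pandas 2.3.3, scipy 1.17.1 and matplotlib 3.10.9 were used.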

Additional observations from a re-analysis of the deposited data

How the results depend on the processing

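With 1 library per condition no replicate error exists, and no paired analysis was possible because each group has 1 library. A value was taken to have moved where an alternative left its counting interval, or, for a list median, where it changed by over 0.1. The *ANGPT2* log2 ratio was 1.73 with 1 FPKM added. For the sum of *ANGPT2* and *MCPH1* the log2 ratio was 0.10. That sum was mostly *MCPH1*, which had 15.0 FPKM in mock cells beside 0.979 FPKM for *ANGPT2*, so it is not a second measure of *ANGPT2*. Of 19 alternative values for member ratios 17 stayed within their interval, and those that moved were of *ANGPT2*. The intervals of *TEK* and *TIE1*, on about 1 read each, were too wide for any of these settings to leave. The 10 alternative counts of members past 1.5-fold equalled those reported. The count of higher members was *ANGPT2* alone, which was picked for its ratio, so an equal count is no support. With no FPKM minimum, 4 angiopoietin family genes, 3 TIE partners, 1 VEGFC protease and 6 other angiogenic ligands passed 1.5-fold. Among all 16289 genes with a ratio and no minimum, 1084 were higher and 2078 lower by 1.5-fold. At 2-fold, 1 other angiogenic ligand, 1 angiogenesis inhibitor and 0 microcephaly genes passed, beside 152 higher and 248 lower of all 12881 genes. The median log2 ratio of the angiopoietin family, over 2 genes, was 0.30 as reported, 0.11 with 1 FPKM added and 0.47 with no minimum. For VEGF receptors and coreceptors the median was -0.29 as reported and 0.11, of the opposite sign, with no minimum. For angiogenesis inhibitors it was -0.07 as reported, -0.27 with no minimum and 0.10, of the opposite sign, at a minimum of 1 FPKM. Over all genes, 383 were higher and 993 lower by 1.5-fold, against 443 and 813 after median centring, and 243 and 471 with 1 FPKM added. Genes under about 0.1 FPKM rest on a few reads.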

Other observations

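*MCPH1* belongs to the genes mutated in primary microcephaly, most of which build centrosomes or spindle poles. All 17 such genes in the table passed the minimum, and their median log2 ratio was 0.08. *MCPH1* was the lowest of them at -0.37. *CDK6*, a cyclin-dependent kinase of early cell cycle, was the 1 gene at least 1.5-fold higher, with 46.3 FPKM in *APC*-silenced and 30.2 FPKM in mock cells, and 0 were lower. Over all 12881 genes the shares were 2.97% higher and 7.71% lower. The centriole gene *STIL* had a log2 ratio of 0.13. Microcephalin restrains condensin II. All 9 genes of the condensin list passed the minimum and 0 of them differed by 1.5-fold, with a median of 0.13. *SET* had 399 and 364 FPKM, and *SMC4*, a core subunit of both condensins, had 99.8 and 85.9 FPKM.

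Of 15 listed angiogenesis inhibitors, 11 passed the minimum, 1 was higher and 2 lower by 1.5-fold, and the median log2 ratio was -0.07. Beside this count, 2.97% of all 12881 genes were higher and 7.71% lower by 1.5-fold. *SPRY4*, a feedback inhibitor of receptor tyrosine kinase signaling, had 54.2 FPKM in *APC*-silenced and 30.7 FPKM in mock cells. Its relative *SPRY1* had 0.896 FPKM in *APC*-silenced and 1.52 FPKM in mock cells. *TIMP3*, a metalloproteinase inhibitor that also blocks VEGF receptor 2, had 0.278 FPKM in *APC*-silenced and 1.14 FPKM in mock cells (log2 ratio -2.03), at a locus it shares with *SYN3*. The most abundant after *SPRY4* was *SEMA3A*, a neuropilin ligand, with 26.9 and 19.8 FPKM.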
